A study of Mus musculus with 6 samples.

Results

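The genes described are 10 genes of transcription factors and early response proteins. They are 4 Fos genes (*Fos*, *Fosb*, *Fosl1* and *Fosl2*), 3 Jun genes (*Jun*, *Junb* and *Jund*), *Atf3*, *Egr1* and *Ier3*. They were taken by name from a deposited expression table of 24346 genes, all 10 were found, and all 10 were among the 11956 genes tested, those averaging 0.5 FPKM or more. FPKM divides the fragments of a gene by the length of its transcript and the size of the library, so levels of different genes can be set side by side.

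RNA from whole livers of 6 male C57/BL6 mice, 8 weeks old, was sequenced 24 hours after an intraperitoneal injection of CCl4, a liver toxin, at 0.6 µl per g body weight in sunflower oil. The 3 controls (labelled wt) were med23 f/f mice with an intact floxed *Med23*, and the other 3 (labelled med23 ko, med23Δli) carried *Albumin*-cre as well. Both groups received CCl4, so the comparison is of injured livers with injured livers, and no untreated liver is among the samples. *Albumin*-cre acts in hepatocytes, so the stellate, endothelial and immune cells of the liver keep *Med23*.

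AP-1 is a family of dimers of bZIP proteins: a FOS protein pairs with a JUN protein, JUN proteins also pair with each other and with ATF proteins, and the dimers bind short palindromic sites in gene promoters and enhancers. Most of these genes are immediate early genes, whose transcription rises within minutes of a growth factor or stress signal, through MAP kinases and the factors that these kinases phosphorylate (ELK1 with SRF, CREB and ATF proteins, JUN itself), and whose mRNAs are short-lived. In liver, *Jun* is known for its role in hepatocyte proliferation after tissue loss, and MED23, a Mediator subunit, is known as a contact of phosphorylated ELK1, the factor that acts on *Egr1*.

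*Med23* itself did not separate the groups. Its FPKM was 3.42, 2.97 and 4.14 in the controls and 3.40, 3.40 and 2.91 in the livers labelled med23 ko (log2 fold change -0.11, adjusted p = 0.685 in limma), and a value for the whole gene does not resolve the floxed part. The groups are therefore named by their labels below. Hepatocyte markers were high in all libraries, with a summed FPKM over 10 genes from 24011 to 33212 in the controls and from 20084 to 26851 in the livers labelled med23 ko. Of these *Cyp2e1*, the enzyme that activates CCl4, was called up (log2 fold change 1.26, adjusted p = 0.00896 in limma), and *Serpina1a* was lower at any size (-0.70, adjusted p = 0.0305). All 8 endothelial markers were lower in the livers labelled med23 ko at an adjusted p under 0.05 (limma), and 5 of them (*Stab2*, *Lyve1*, *Kdr*, *Clec4g* and *Vwf*) by more than 2-fold. Their summed FPKM ranged from 84.7 to 122 in the controls and from 45.4 to 48.7 in the others. The summed macrophage and monocyte markers ranged from 231 to 274 and from 242 to 268, the neutrophil markers from 43.4 to 137 and from 40.8 to 101, and the stellate cell markers from 32.3 to 43.6 and from 27.0 to 38.7, and none of these was called up or down. The median log2 fold change was -0.14, -0.60 and -0.45 over these lists, and *Des* of the stellate cell list was lower at an adjusted p of 0.0497 in limma. Adipocyte markers set library 2 of the livers labelled med23 ko apart, with a summed FPKM of 199.6 against 28.7 and 33.8 in the other two and 72.7 to 144 in the controls, and *Adipoq* at 5.65 against at most 0.0907 elsewhere. In the controls *Adipoq*, *Ucp1*, *Plin1* and *Lep* were at 0, and the sum was mostly *Fabp4* (53.2 to 66.3) and *Cidec* (19.2 to 77.6). *Cidec* was called down (-3.24, adjusted p = 0.0161 in limma), and whether this is a change of adipocytes was not tested. Without library 2 the log2 fold changes of *Fosb* (-0.49), *Fosl2* (0.23), *Jun* (0.47), *Junb* (-0.36), *Jund* (-0.13) and *Atf3* (1.004) had adjusted p-values in limma of 0.244 or more, and those of the other 4 members are given below. No marker on these lists was at 0 in every library. A library had from 7628 to 9341 genes at 0, and the 10 most abundant genes held 17.1% to 20.3% of the summed FPKM in the controls and 11.9% to 13.7% in the others.

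The 10 genes did not move as a block. *Fosl1* and *Ier3* were higher in the livers labelled med23 ko by about 3-fold, *Egr1* was at about 50% of its control level, *Fos* and *Junb* had lower means without passing the adjusted test, and *Jun*, *Jund*, *Atf3*, *Fosb* and *Fosl2* were not separated from the controls. A gene was called when limma gave an adjusted p under 0.05 over all genes tested together with a change of more than 2-fold on the log2(FPKM + 0.1) scale. By that rule 2 of the 10 were called up (*Fosl1* and *Ier3*), beside 4.45% of all genes tested, and 0 were called down, beside 3.45%. At an adjusted p under 0.05 and any size, 2 were higher, beside 11.6% of all genes, and 1 (*Egr1*) was lower, beside 9.48%. At an unadjusted p under 0.05 in limma 3 were lower (*Fos*, *Junb* and *Egr1*), beside 17.1% of all genes tested, and 2 were higher, beside 20.5%. The values of the groups did not overlap for 2 genes that were higher (*Fosl1* and *Ier3*), beside 23.3% of all genes tested, and for 2 that were lower (*Junb* and *Egr1*), beside 20.4%, and counts of this size over 10 genes are not far from the shares over the whole table. The median log2 fold change of the 10 was 0.07, against 0.02 over all genes tested. In whole liver, fewer cells of a type and less RNA per cell cannot be told apart.

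**Figure D1:**
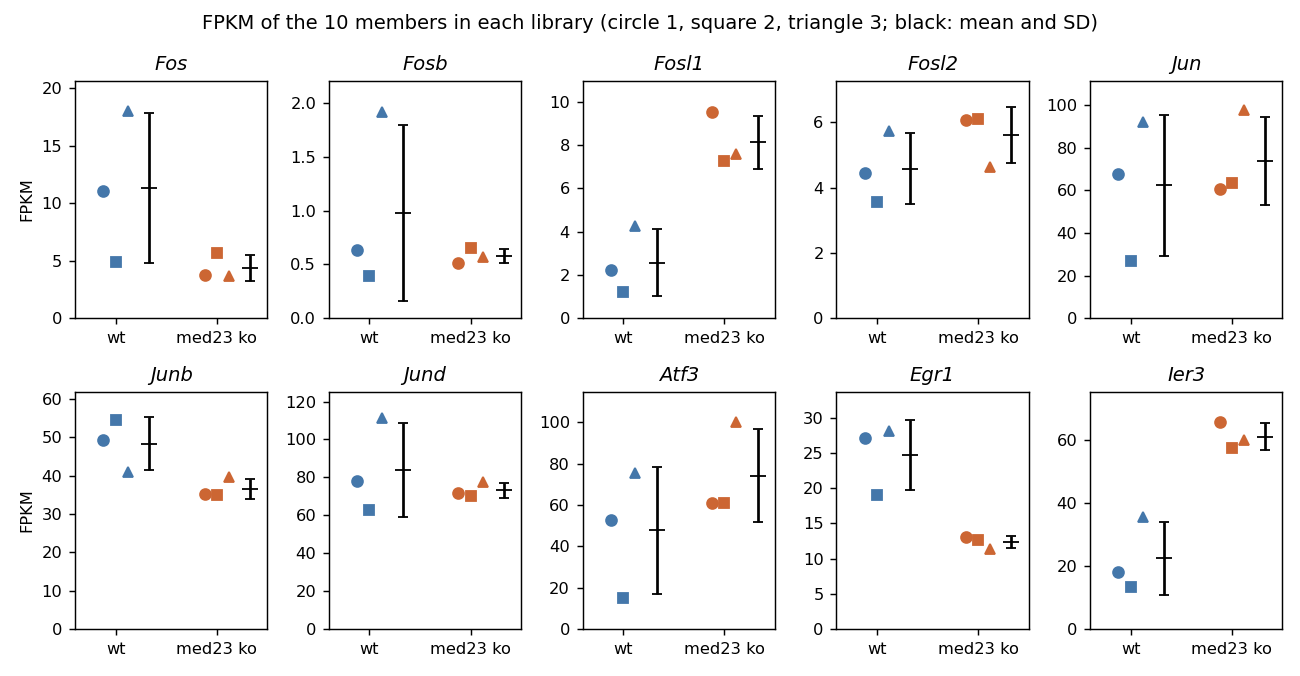
FPKM of each gene in each of the 6 libraries (controls in blue, livers labelled med23 ko in orange, with the mouse number as circle, square or triangle) and, in black, the mean and SD of each group of 3. For *Fosl1* and *Ier3* the orange points all lie above the blue ones, for *Egr1* and *Junb* they all lie below, and for the other 6 genes the groups overlap.

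Among the Fos genes, *Fos* and *Fosl1* stood at opposite ends. *Fos* encodes c-FOS, the founding partner of JUN in AP-1 (chr12:85473890-85477273 on GRCm38, plus strand). Its FPKM was 11.0, 4.91 and 18.004 in the controls and 3.72, 5.65 and 3.65 in the livers labelled med23 ko. The means were 11.3 ± 6.55 and 4.34 ± 1.14 (SD, n = 3 each). Libraries 1 and 3 of the second group lay below all controls, but control 2, the lowest control, lay below library 2 of that group. The log2 fold change was -1.21 (SE 0.43), with an adjusted p of 0.0787 in limma. Without control 3 it was -0.78, with an adjusted p of 0.137, and without control 2 it was -1.71, with an adjusted p of 0.0130, so 1 control mouse decides which side of the threshold *Fos* takes. Without library 2 of the livers labelled med23 ko, the one with adipocyte markers, it was -1.41 (adjusted p = 0.108 in limma).

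*Fosl1* encodes FRA1, a FOS protein without the transactivation domain of c-FOS (chr19:5447547-5455946, plus strand). Its FPKM was 2.22, 1.23 and 4.26 in the controls and 9.54, 7.27 and 7.58 in the livers labelled med23 ko. All 3 of the latter were above all controls, and the means of 2.57 ± 1.54 and 8.13 ± 1.23 (SD, n = 3 each) differed 3.17-fold. On the log2 scale the change was 1.78 (SE 0.38, adjusted p = 0.0178 in limma), and it stayed between 1.36 and 2.22 with any single library left out. The adjusted p was then between 0.0501 and 0.0680 without control 1 or without any 1 of the livers labelled med23 ko, so the call needs these libraries. Without library 2, the one with adipocyte markers, the change was 1.86 and the adjusted p 0.0506.

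The remaining Fos genes were low and did not separate. *Fosb*, which encodes FOSB, was the lowest of the 10, with an FPKM of 0.633, 0.391 and 1.92 in the controls and 0.515, 0.649 and 0.566 in the livers labelled med23 ko. Its log2 fold change of -0.41 (SE 0.49, adjusted p = 0.567 in limma) rests on control 3, without which it was 0.17. *Fosl2*, which encodes FRA2, had an FPKM of 4.45, 3.57 and 5.72 in the controls and 6.08, 6.11 and 4.62 in the others, with overlapping groups and a log2 fold change of 0.30 (SE 0.21, adjusted p = 0.321 in limma) that was 0.14 without control 2 and 0.47 without control 3.

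In the controls the Jun genes were the most abundant of the 10 together with *Atf3*. *Jun* encodes c-JUN, the JUN protein that is activated by JNK (chr4:95049034-95052222, minus strand). Its FPKM was 67.7, 27.0 and 92.3 in the controls and 60.5, 63.6 and 97.7 in the livers labelled med23 ko. The groups overlapped over most of their range, and control 2 alone was low. The fitted log2 fold change was 0.38 (SE 0.42, adjusted p = 0.536 in limma), and without control 2 it was -0.13.

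*Junb* encodes JUNB, a weaker activator that can oppose c-JUN (chr8:84974484-84978718, minus strand). Its FPKM was 49.4, 54.6 and 41.0 in the controls and 35.2, 35.0 and 39.5 in the livers labelled med23 ko. No value overlapped, but library 3 of the second group came within a few percent of control 3. The means were 48.3 ± 6.85 and 36.6 ± 2.57 (SD, n = 3 each), and the log2 fold change was -0.39 (SE 0.15) with an adjusted p of 0.0900 in limma. Without control 3 the change was -0.51 and the adjusted p 0.0312. *Jund* encodes JUND, the JUN protein found in most resting cells. Its FPKM was 78.1, 62.7 and 111 in the controls and 71.8, 70.1 and 77.7 in the others, so that the second group lay inside the range of the first. The log2 fold change was -0.16 (SE 0.21, adjusted p = 0.602 in limma) and 0.063 without control 3.

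*Atf3* encodes a stress-induced bZIP protein that pairs with JUN proteins and often acts as a repressor (chr1:191170296-191218039, minus strand). Its FPKM was 52.8, 14.7 and 75.4 in the controls and 61.0, 61.1 and 100.0 in the livers labelled med23 ko. Control 2 was again far below every other library, and control 3 lay above 2 of the livers labelled med23 ko. The log2 fold change was 0.89 (SE 0.54, adjusted p = 0.268 in limma), and it fell to 0.19 without control 2. The order of the 6 libraries was nearly that of *Jun*.

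*Egr1* encodes a zinc finger factor of the serum response (ENSMUSG00000038418.7). Its FPKM was 27.1, 19.0 and 28.1 in the controls and 13.0, 12.6 and 11.3 in the livers labelled med23 ko. The second group was tight and lay wholly below the first, and the control mean of 24.7 ± 4.98 was 2.01-fold the other mean of 12.3 ± 0.881 (SD, n = 3 each). The log2 fold change was -0.98 (SE 0.17, adjusted p = 0.0102 in limma), just short of the 2-fold that a call needs. It stayed between -1.16 and -0.88 with any single library left out, with an adjusted p of at most 0.0457, and was -0.998 (0.0393) without library 2 of the livers labelled med23 ko, the one with adipocyte markers. *Egr1* was called down after each library was centred on its median, after quantile normalization, and without control 2 or without library 1 of the livers labelled med23 ko. The endothelial markers above fell by a similar size in the same libraries, with a median log2 fold change of -1.03 over the 8, and their part in the lower *Egr1* and *Fos* was not tested.

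*Ier3* encodes a small early response protein tied to cell survival and ERK signalling and is no DNA-binding factor (chr17:35821684-35822923, plus strand). Its FPKM was 18.1, 13.3 and 35.6 in the controls and 65.6, 57.2 and 59.9 in the livers labelled med23 ko. The groups were far apart, with a 2.73-fold difference between the means of 22.3 ± 11.7 and 60.9 ± 4.29 (SD, n = 3 each). Its log2 fold change was 1.56 (SE 0.32, adjusted p = 0.0153 in limma), and it stayed between 1.26 and 1.96 with any single library left out. The adjusted p was 0.0585 without library 1 and 0.0560 without library 3 of the livers labelled med23 ko, and below 0.05 without any other library, with a change of 1.61 and an adjusted p of 0.0462 without library 2, the one with adipocyte markers.

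**Figure D2:**
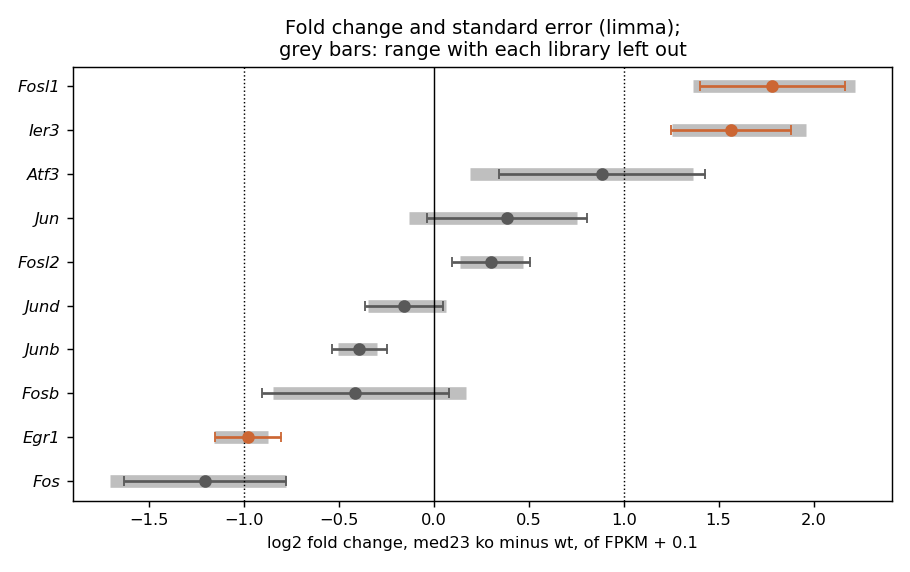
Log2 fold change (livers labelled med23 ko minus controls, of FPKM + 0.1) of each gene with its standard error from limma, genes at an adjusted p under 0.05 in orange, dotted lines at 2-fold, and a grey bar for the range when each library is left out in turn. *Fosl1* (1.78) and *Ier3* (1.56) lie past 2-fold, *Egr1* (-0.98) lies at it, and the grey bars of *Jun*, *Fosb* and *Jund* reach across 0.

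The promoters of 8 of the 10 genes were matched in RefSeq (GRCm38.p6), the entries not matched being *Fosl1* and *Egr1*. The 100 bases before the RefSeq start are printed for *Fos*, whose mean was lower, for *Ier3*, which was higher, and for *Jun* and *Atf3*, which followed each other across the libraries. They are written 5′ to 3′ on the strand of the gene, with matches to the searched motifs in capitals.
Fos (chr12:85473790-85473889, plus strand): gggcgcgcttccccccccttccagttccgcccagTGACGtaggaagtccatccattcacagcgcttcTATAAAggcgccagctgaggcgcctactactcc
Jun (chr4:95052223-95052322, minus strand): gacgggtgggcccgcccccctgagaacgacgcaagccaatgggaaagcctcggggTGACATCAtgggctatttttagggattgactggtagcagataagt
Atf3 (chr1:191183334-191183433, minus strand): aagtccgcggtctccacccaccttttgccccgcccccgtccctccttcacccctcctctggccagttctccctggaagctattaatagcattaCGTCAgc
Ier3 (chr17:35821613-35821712, plus strand): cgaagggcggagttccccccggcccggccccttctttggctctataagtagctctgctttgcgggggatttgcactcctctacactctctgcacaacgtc

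In the *Fos* promoter the capitals mark TGACG, the core of the cAMP response element, at position -66 from the start. They also mark a TATA box, spelled TATAAA, at position -33. A further TGACG lay at position -129. In *Jun* they mark TGACATCA, a match to TGACNTCA, the longer site that JUN-ATF dimers bind, at position -45, and in *Atf3* they mark TGACG on the opposite strand, at position -7. No searched motif matched in *Ier3*. Over 250 bases before the start and both strands, TGACG was in 4 of the 8 promoters (*Fos*, *Fosb*, *Junb* and *Atf3*) and in 17.8% of 32851 promoters, and TGACNTCA was in 1 of 8 and in 7.49%. TGACNTCA with G in the middle contains TGACG, so these motifs can overlap. TATAAA on the strand of the gene was in 1 of 8 and in 7.59%, and GCGNGGGCG, a site of EGR proteins, was in *Fosb* and *Fosl2* and in 4.70%. TGANTCA, the AP-1 site itself, was in 0 of the 8 and in 6.75% of all promoters, AGGTCA was in 0 and in 14.0%, and the CArG box of SRF was in 0 and in 1.47%. A match describes letters in this window and not a bound site. A count of 0 holds for these 250 bases of these 8 promoters alone, and sites further away or in *Fosl1* and *Egr1* were not searched.

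The order of the levels shifted between the groups. In the controls *Jund* was the highest at a mean FPKM of 84.0, followed by *Jun* (62.3), *Junb* (48.3), *Atf3* (47.7), *Egr1* (24.7), *Ier3* (22.3), *Fos* (11.3), *Fosl2* (4.58), *Fosl1* (2.57) and *Fosb* (0.980). Every pair of neighbours in this order overlapped in its values. In the livers labelled med23 ko the order was *Atf3* (74.1), *Jun* (73.9), *Jund* (73.2), *Ier3* (60.9), *Junb* (36.6), *Egr1* (12.3), *Fosl1* (8.13), *Fosl2* (5.601), *Fos* (4.34) and *Fosb* (0.577). There the values of the first 3 overlapped, as did those of *Fosl2* and *Fos*, and each other step separated all values of one gene from those of the next. *Ier3* had moved above *Junb*, and *Fosl1* above *Fosl2* and *Fos*.

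The 7 Fos and Jun genes were also read by their shares of a summed FPKM. These are shares of mRNA, without *Atf3*, and AP-1 proteins and dimers were not measured. The summed FPKM of these genes was 214 ± 60.0 in the controls and 202 ± 25.2 in the livers labelled med23 ko (SD, n = 3 each, exact two-sided permutation p = 0.8). The 4 Fos genes held 8.67% ± 2.18 and 9.38% ± 1.98 of that sum (exact permutation p = 0.7), and the Jun genes held the rest. Within the Fos genes the shares of *Fos* and *Fosl1* lay apart in opposite directions. *Fos* held 5.17%, 3.18% and 6.56% of the sum in the controls and 1.99%, 3.00% and 1.58% in the others, whereas *Fosl1* held 1.04%, 0.795% and 1.55% and then 5.10%, 3.86% and 3.28%. For both the groups did not overlap, narrowly so for *Fos*, and the exact two-sided permutation p was 0.1, the smallest that 3 against 3 libraries allow, which cannot pass 0.05. *Jun* held 27.6% ± 8.81 and 36.1% ± 5.37 (exact permutation p = 0.2), *Junb* 24.5% ± 10.3 and 18.2% ± 0.930 (p = 0.4), and *Jund* 39.2% ± 2.30 and 36.4% ± 2.48 (p = 0.3). These p-values are not adjusted over the 7 genes. The difference for *Jun* (8.48 percentage points) was 3.42 without control 2 and 5.41 without library 3 of the livers labelled med23 ko. That for *Junb* (-6.32) was -0.879 without control 2 and -11.1 without control 3, and that for *Jund* (-2.87) was -1.47 without library 3 of the livers labelled med23 ko.

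**Figure D3:**
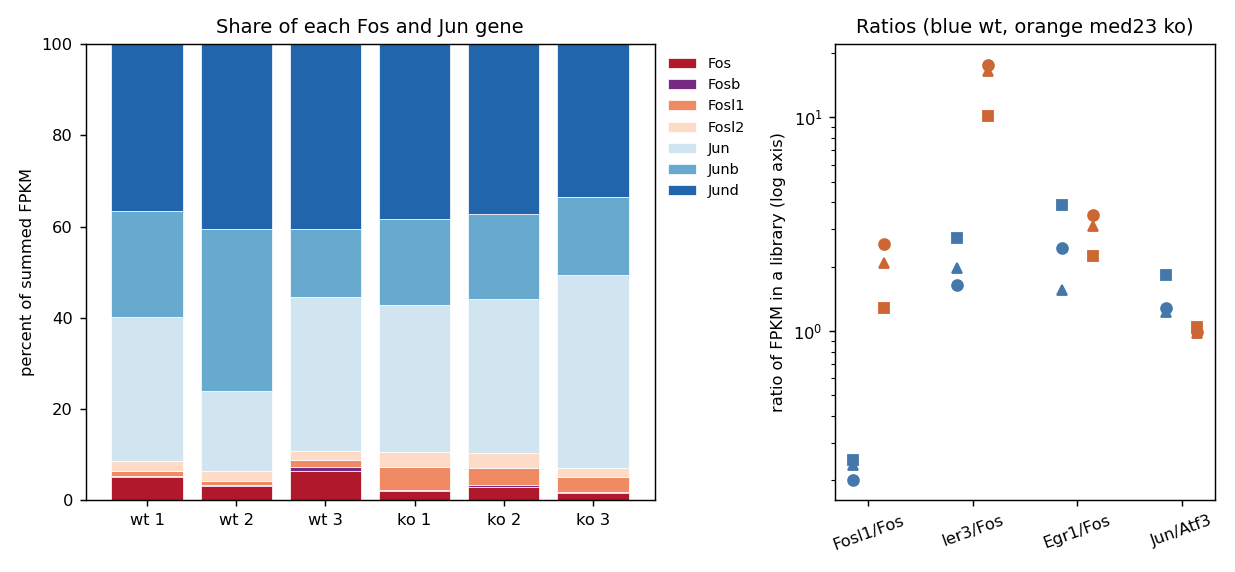
Left, percent of the summed FPKM of the 7 Fos and Jun genes held by each gene in each library; right, ratios of pairs of genes within a library on a log axis, controls in blue and livers labelled med23 ko in orange. The *Fos* band narrows from a mean of 4.97% to 2.19% while the *Fosl1* band widens from 1.13% to 4.08%, and the ratios of *Fosl1* and *Ier3* to *Fos* do not overlap between the groups.

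Ratios within a library do not depend on how that library was scaled. They were chosen after the values had been seen and are a description. There were 0.201, 0.250 and 0.236 *Fosl1* per *Fos* (FPKM over FPKM) in the controls and 2.57, 1.29 and 2.08 in the livers labelled med23 ko. The control ratios were nearly constant although *Fos* and *Fosl1* each varied more than 3-fold between these mice, and *Fosl1* was the higher of the pair only in the second group. The geometric means differed 8.32-fold, a log2 difference of 3.06 that stayed between 2.84 and 3.34 with any library left out (exact two-sided permutation p = 0.1, the smallest possible).

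*Ier3* per *Fos* was 1.64, 2.72 and 1.97 in the controls and 17.6, 10.1 and 16.4 in the others, a 6.93-fold difference of geometric means (exact permutation p = 0.1), with a log2 difference of 2.79 that stayed between 2.63 and 3.04 with any library left out. *Egr1* per *Fos* was 2.45, 3.87 and 1.56 in the controls and 3.50, 2.24 and 3.11 in the others. These overlapped (log2 difference 0.24, exact permutation p = 0.7), and the difference ranged from -0.09 to 0.57 with a library left out, so these 6 libraries did not separate the change of *Egr1* from that of *Fos*, which itself missed the adjusted p. *Jun* per *Atf3* was 1.28, 1.83 and 1.22 in the controls and 0.991, 1.04 and 0.977 in the others, for genes that each varied more than 3-fold among the controls. All 3 of the latter ratios were below all of the former (log2 difference -0.50, exact permutation p = 0.1, again the smallest possible), and the difference ranged from -0.61 without control 3 to -0.32 without control 2.

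Much of the spread in these genes lay between the control mice. Control 2 was the lowest and control 3 the highest of the controls in 9 of the 10 genes, *Junb* having the reverse order, whereas that order held for 22.8% of all genes tested and for 9 of 22 other immediate early genes (40.9%). The same order was found in 5 of 8 SRF genes (62.5%) and 9 of 16 other bZIP genes (56.2%). It held in 9 of 19 phosphatase, Sprouty and decay genes (47.4%) and 8 of 21 genes with AP-1 sites (38.1%). Of 22 kinases 4 had it (18.2%). The median deviation of the 10 genes from their own mean was -0.57 on the log2 scale in control 2 and 0.52 in control 3, against -0.04 and -0.01 over all genes tested. The coefficient of variation of the 10 genes ran from 14.2% to 83.7% among the controls and from 5.47% to 30.4% among the livers labelled med23 ko.

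**Figure D4:**
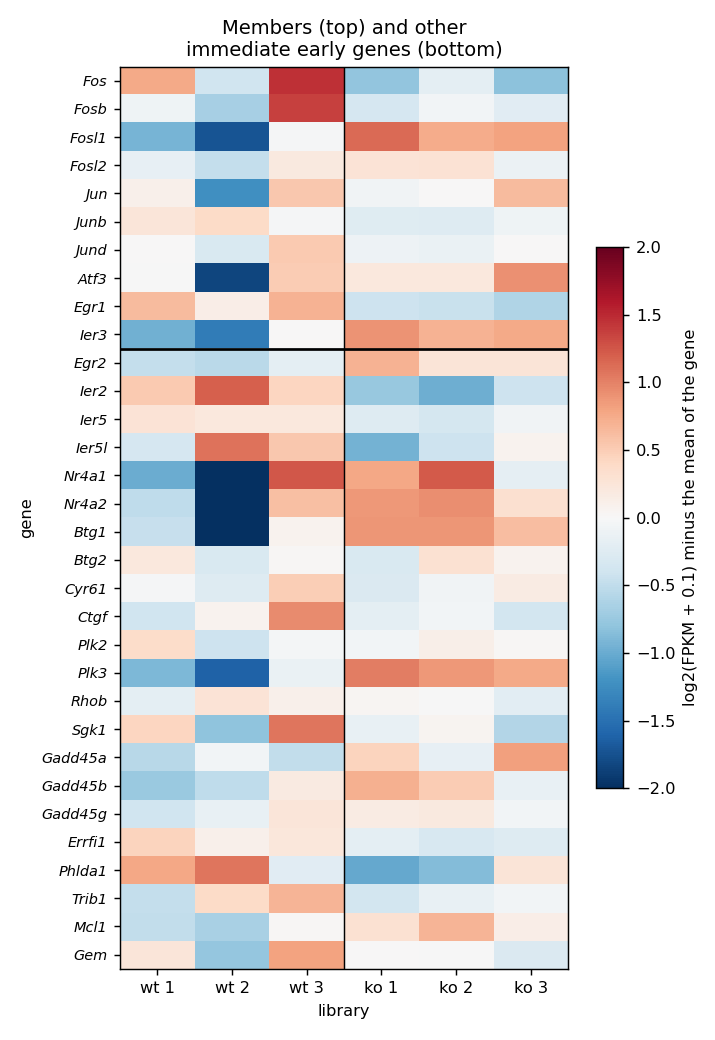
Log2(FPKM + 0.1) of each gene minus its own mean over the 6 libraries, for the 10 genes (above the black line) and 22 other immediate early genes (below it), with colours ending at -2 and 2. The column of control 2 is blue and that of control 3 red or pale for most of the 10 genes (medians -0.57 and 0.52), while the columns of the livers labelled med23 ko resemble each other.

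Short-lived mRNAs often carry ATTTA, the core of AU-rich elements that decay factors bind, in their 3′ UTR. In the longest annotated 3′ UTR (GENCODE M 21, GRCm38) all 10 genes held at least 1 ATTTA, against 68.8% of 11142 tested genes with a 3′ UTR. The median was 2.20 per 1000 bases for the 10 and 1.29 for all tested genes. Of 20 other immediate early genes with a 3′ UTR, 80.0% held it, with a higher median of 2.71. *Ier3* was the densest at 8.16 per 1000 bases and *Fosb* the sparsest at 0.434. The stretches of 30 bases below come from *Fos* and *Jun*, the founding pair of AP-1, and from *Fosl1* and *Ier3*, which were called up, with ATTTA in capitals.
Fos: cgtttttattgtgttttcaATTTATTTAtt
Jun: gtgatcATTTAtaatcataggaaagATTTA
Fosl1: agcctccaccgcaagggcagctgctATTTA
Ier3: ctccgtgtctaattaatATTTAtgtATTTA

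*Fos* held 4 ATTTA in 815 bases, *Jun* 4 in 1233, *Fosl1* 1 in 638 and *Ier3* 5 in 613. Genes with dense ATTTA were thus on both sides, *Fos* with 4.91 per 1000 bases and *Junb* with 4.12 among those with lower means, and *Ier3* among those that were higher.

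The other bZIP proteins that pair with FOS or JUN showed no call. Of 16 tested of 17, 0 were called in either direction by limma, and at an unadjusted p under 0.05 there were 6 higher and 0 lower, beside 20.5% and 17.1% of all genes tested. Those higher at an adjusted p under 0.05 and any size included *Atf6* (10.4 ± 2.39 to 18.6 ± 1.84 FPKM), which is processed in the unfolded protein response, *Atf7* and *Mafg*, which encodes a small MAF protein, with log2 fold changes of 0.85, 0.71 and 0.84. The median of the list was 0.31, against 0.02 over all genes tested.

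Of 26 further immediate early genes 22 were tested, with 2 called up and 1 called down, beside 4.45% and 3.45% of all genes tested, and a median log2 fold change of -0.03. *Plk3*, a polo-like kinase of the stress response, had an FPKM of 27.2, 16.4 and 46.1 in the controls and 103, 92.6 and 85.7 in the livers labelled med23 ko (log2 fold change 1.77, adjusted p = 0.0115 in limma). *Ier2*, an immediate early nuclear protein, had 56.4, 89.9 and 52.9 and then 23.2, 20.02 and 29.6 (-1.42, adjusted p = 0.00795). Both calls held in all 15 alternatives fitted, and at an adjusted p under 0.01 that of *Plk3* did not. *Btg1*, an antiproliferative gene, rose from 13.8 ± 8.32 to 35.9 ± 3.71 FPKM (1.60, adjusted p = 0.0445), but missed the adjusted p in 8 of 15 alternatives, with up to 0.119 without library 1 of the livers labelled med23 ko, and its log2 fold change was 0.99 without control 2. *Ier2* and *Ier3*, which share a name and not a sequence family, went apart.

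The list of genes that hold the MAP kinase response in check held calls at about the share of all genes. *Nab2*, a corepressor of EGR proteins and known EGR target, had an FPKM of 23.9, 35.2 and 25.5 in the controls and 5.89, 7.48 and 5.18 in the livers labelled med23 ko. The groups were far apart (28.2 ± 6.13 and 6.18 ± 1.18, log2 fold change -2.17, SE 0.20, adjusted p = 0.00131 in limma). *Nab1*, which encodes a related corepressor, was at 20.3 ± 6.26 and 18.8 ± 1.91 (log2 fold change -0.07, adjusted p = 0.855). Of the 19 phosphatase, Sprouty, corepressor and mRNA decay genes, 1 was called up and 1 (*Nab2*) down, beside 4.45% and 3.45% of all genes tested. The gene called up was *Dusp8*, a phosphatase of JNK and p38 (1.41 ± 1.08 to 4.50 ± 0.745 FPKM, 1.86, adjusted p = 0.0309 in limma). *Dusp8* lost its call with no filter on low values (adjusted p = 0.0667), without control 1 and without any 1 of the livers labelled med23 ko, with an adjusted p of up to 0.103. At any size *Zfp36l2*, an mRNA decay factor, was higher as well (0.87), and the ERK inhibitors *Spry1* (-0.65) and *Spry4* (-0.58) were lower. The median of the list was 0.16.

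Of the kinases upstream, the MAP kinase pathway genes, 22 of 24 were tested and 2 were called up, beside 4.45% of all genes tested: *Mapkapk2* (53.1 ± 12.9 to 106 ± 11.1 FPKM, 1.02, adjusted p = 0.0111) and *Mapkapk3* (3.51 ± 0.582 to 7.32 ± 1.73, 1.03, adjusted p = 0.0144 in limma), kinases that p38 activates. Both lie at the edge of 2-fold. *Mapkapk2* was below it (log2 fold change down to 0.91) without control 1 or 2 or library 1 or 2 of the livers labelled med23 ko, *Mapkapk3* (down to 0.84) without control 2 or library 2 of the latter, and both under quantile normalization (0.89 and 0.99) and median centring (0.989 and 0.998). *Mapkapk3* was also below it with a pseudocount of 1 (0.87). In limma 0 were called down, beside 3.45% of all genes, 3 were lower at an unadjusted p under 0.05, beside 17.1%, and *Mapk12*, a p38 kinase, was lower at any size (-0.84). The 8 genes of SRF and its partners held 0 called genes in either direction and 0 at an unadjusted p under 0.05 in limma, with a median of -0.05. *Srf* was at 13.8 ± 2.91 and 12.1 ± 0.661 FPKM and *Elk1* at 1.89 ± 0.285 and 2.22 ± 0.445.

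Among 24 genes textbooks list with AP-1 sites 21 were tested, with 0 called up and 5 called down in limma, beside 4.45% and 3.45% of all genes tested. At an unadjusted p under 0.05 there were 4 higher and 7 lower, beside 20.5% and 17.1%. *Areg*, an EGF receptor ligand, fell from 4.70 ± 1.90 to 0.852 ± 0.0696 FPKM (log2 fold change -2.24, adjusted p = 0.00535 in limma, and -1.56 with a pseudocount of 1). *Krt8*, a keratin of epithelial cells, fell from 1532 ± 349 to 500.4 ± 49.0 (-1.59, adjusted p = 0.00313). *Nqo1*, a quinone reductase, was at 6.59, 22.6 and 3.85 and then at 2.17, 1.40 and 1.72 (-2.20, adjusted p = 0.0305), and at -1.48 without control 2. *Mt1*, a metallothionein (-1.33), and *Mmp9*, a matrix protease (-1.20), were the others, and *Mmp9* was at -0.77, short of 2-fold, with a pseudocount of 1. *Nqo1*, *Mt1* and *Mmp9* each missed the adjusted p with no filter (0.0663, 0.0766 and 0.0652) and *Nqo1* also under robust eBayes (0.0565). They missed it as well without either library 1 or library 3 of the livers labelled med23 ko, and *Nqo1* also without control 1 or library 2, *Mt1* without control 2, and *Mmp9* without control 2 or 3 or library 2, with values of up to 0.0921, 0.104 and 0.108. At any size *Cd44*, *Ccl2* and *Hmox1* were higher (0.67, 0.91 and 0.59) and *Krt18* lower (-0.83), and the median of the list was -0.13. These genes have other inputs besides AP-1, and whether AP-1 takes part in any of these values was not tested.

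**Figure D5:**
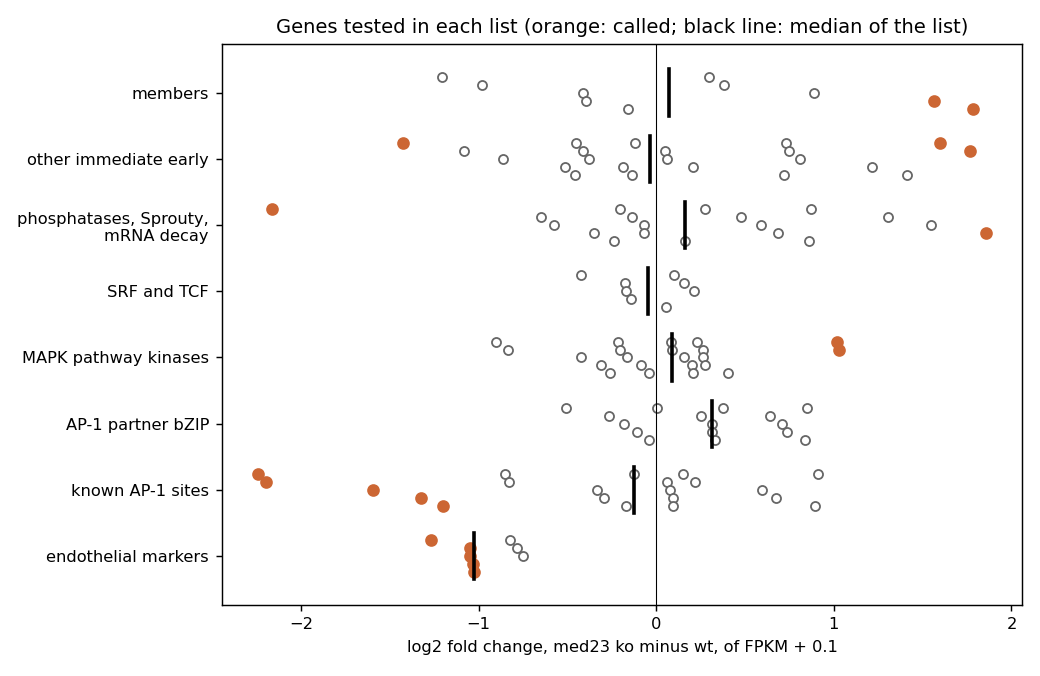
Log2 fold change (livers labelled med23 ko minus controls, of FPKM + 0.1) of each gene tested in each list, called genes in orange and the median of the list as a black line. The medians of the lists of the pathway lie between -0.13 and 0.31, while that of the endothelial markers lies at -1.03.

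The 3 genes nearest in pattern to each of *Fos*, *Jun*, *Egr1* and *Atf3* were sought among all tested genes outside the members. Some gene is always nearest, so these are a description. Likeness was the root mean square difference of mean-centred log2 values over the 6 libraries, so 0 would be the same pattern. The nearest to *Egr1* were *Hmgxb4* at 0.0859, *Sept5* at 0.0994 and *Il17rb* at 0.107. The nearest to *Fos* were *Tppp* at 0.182, *Btc* at 0.264 and *AA986860* at 0.324. Those of *Jun* were *Htra1* (0.166), *R3hdml* (0.209) and *Ahr* (0.212), and those of *Atf3* were *Clec4b1* (0.245), *Otud1* (0.250) and *Rpl14-ps1* (0.270). Of these *Htra1*, *R3hdml*, *Clec4b1* and *Rpl14-ps1* were low, at 0.368, 0.318, 0.108 and 0 FPKM in control 2, where the added 0.1 weighs on the pattern. *Btc*, an EGF receptor ligand like *Areg*, had an FPKM of 2.81, 1.45 and 4.69 in the controls and 1.56, 1.91 and 1.30 in the livers labelled med23 ko, with the low control 2 and the high control 3 of *Fos*.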

How the data were processed

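The authors prepared TruSeq v2 libraries from whole-liver RNA of 6 mice, 1 library a mouse, and sequenced them on a HiSeq. Per the labels they checked reads with FastQC, aligned them to mm10 with TopHat and ran Cuffdiff, whose versions and options are not given in the sources used here. The deposited table holds FPKM per library and group, and the authors' own log2 fold change, p-value and q-value of the comparison, which were not used. No per-library column was left unmapped (0).

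FPKM keeps no counts, and its low values showed no step of whole reads (the most common ratio between controls 1 and 2 held 0.824% of 1942 low genes), so the depth behind a value is unknown from these files and the spread between 3 mice is the only error used. The 11956 genes averaging 0.5 FPKM or more were compared on log2(FPKM + 0.1) with limma 3.58.1 in R 4.3.3 (eBayes with trend, Benjamini-Hochberg over all genes tested), with no block. A call needed an adjusted p under 0.05 and more than 2-fold. The test was checked on simulated data. Single values had an exact two-sided permutation test.

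The members and lists were chosen with earlier results of these data known. The genes named are the 10 members, *Med23*, and the called genes of the lists described above. To these come the 3 nearest genes to *Fos*, *Jun*, *Egr1* and *Atf3*. Chosen after their values were seen were genes past the adjusted p alone and *Nab1*, *Srf*, *Elk1*, *Adipoq*, *Ucp1*, *Plin1*, *Lep* and *Fabp4*. Some genes of the lists are not reported here. Alternatives were pseudocounts of 1 and 0.01, no filter or one at 1 FPKM, median centring, quantile normalization, eBayes without trend or robust, a replicate block, an adjusted p under 0.01, and leaving out each library. Promoters came from RefSeq, positions and 3′ UTRs from GENCODE M 21. The rest was done in Python (3.11.15) with scipy (1.17.1), pandas (2.3.3), numpy (2.4.6) and matplotlib (3.10.9).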

Additional observations from a re-analysis of the deposited data

How the results depend on the processing

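Direction held for *Fos*, *Fosl1*, *Fosl2*, *Junb*, *Atf3*, *Egr1* and *Ier3* in all 15 alternatives fitted. With a library left out, the log2 fold change of *Fosb* ranged from -0.85 to 0.17, that of *Jund* from -0.35 to 0.063 and that of *Med23* from -0.22 to 0.017, each turning without control 3, and that of *Jun* from -0.13 to 0.75, turning without control 2. With single libraries left out, 319 to 730 genes were called up and 268 to 529 down (532 and 412 with all libraries), 0 to 2 of the 10 members up (0 without library 1 or 3 of the livers labelled med23 ko) and 0 to 2 down, 1 to 15 list genes up (5 with all libraries, 15 without control 3) and 4 to 7 down (7 with all libraries). At an adjusted p under 0.01, 285 genes were up and 186 down, and 0 members up. A pseudocount of 1 left 229 genes called down, and no filter left 4 list genes called down. Under median centring and under quantile normalization 1 member (*Egr1*) was called down and 3 list genes up. The causes were not tested. Rescaling moved the median of all genes by less than 0.1 on the log2 scale.

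With the replicate number as a block, 477 genes were called up and 353 down, 2 members up and 0 down, and 4 list genes up and 7 down, *Btg1* being the gene lost (adjusted p = 0.0539 in limma). The adjusted p was 0.0282 for *Egr1*, 0.0245 for *Fosl1* and 0.0213 for *Ier3*. Same-numbered libraries did not deviate together (correlations over genes -0.02, -0.05 and -0.12), so the numbers do not pair the mice. With no counts, depth sets no interval here, and low genes such as *Fosb* are limited by the spread between mice alone.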
